A study of Mus musculus with 5 samples.

Results

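The miRNAs mmu-miR-199a-3p, mmu-miR-199b-3p, mmu-miR-199a-5p, mmu-miR-214-3p, mmu-miR-143-3p and mmu-miR-145a-5p, named below without the species prefix, were followed through mouse liver development as Ago-bound miRNAs and through their seed-matched sites in Ago-bound RNA. They were chosen by name, as 6 of the 995 miRNAs that the interaction tables list. Livers of C57BL/6 mice, C57BL/6J in the methods, were analysed at the embryonic days e12.5, e15.5 and e18.5, at postnatal day 7 (P7) and in the adult, which the methods give as 6 to 8 weeks of age. Ago HITS-CLIP, in which RNA is crosslinked to Argonaute (Ago) protein in tissue with 254 nm UV light, precipitated and sequenced, was applied to each stage after 3 rounds of irradiation. Each stage is represented by 1 table. The embryonic livers were precipitated with 2 antibodies against Ago2, and at P7 and in the adult an Ago1 antibody was used as well, so a postnatal stage and the added antibody cannot be told apart. For Ago2 the methods give 2 biological replicates, and the study's lists of libraries name a second one at e18.5 and at no other stage. How replicates or animals were combined in the tables is not stated there. With 1 table per stage no difference has a replicate check, so no test was made. A difference is called here where it is at least 2-fold, and intervals are Wilson 95% intervals that cover counting error only, since the reads carry no molecular identifiers.

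These miRNAs are known as marks of mesenchymal cells. In the liver such cells are the stellate cells, portal fibroblasts and vascular smooth muscle cells, which store retinoids, lay down collagen and contract. The genes of miR-199a-2 and miR-214 lie together in the noncoding transcript Dnm3os, on the strand opposite to the dynamin gene Dnm3, and miR-143 and miR-145 come from a shared transcript that is prominent in smooth muscle. A mature miRNA guides Ago to RNA mainly through its seed, the bases 2 to 8 from its 5′ end. A site that pairs with 8 bases (8mer) or 7 bases (7mer) usually represses an mRNA more than a 6mer, and more in a 3′UTR than in the coding sequence (CDS).

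The mature sequences are shown because they set which sites the members share. They are those of RefSeq (GRCm38.p6), written 5′ to 3′ with the seed in capitals.
miR-199a-3p: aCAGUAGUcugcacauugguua
miR-199b-3p: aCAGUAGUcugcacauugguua
miR-199a-5p: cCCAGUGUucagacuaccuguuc
miR-214-3p: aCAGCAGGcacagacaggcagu
miR-199a-3p and miR-199b-3p had the same sequence, so their entries could not be told apart. They shared every distinct site, 1820 at e12.5 and 778 in the adult for example. They are given as miR-199-3p below, which leaves 5 seeds. miR-199-3p is encoded by 3 genes, at chr1:162217883-162217904 on the plus strand (miR-199a-2), chr9:21496498-21496519 on the minus strand (miR-199a-1) and chr2:32318524-32318545 on the plus strand (miR-199b). miR-199a-5p is encoded by 2 genes, the hairpins of miR-199a-1 and miR-199a-2. miR-214-3p is encoded at chr1:162223438-162223459 on the plus strand, where the tables place it in an exon of Dnm3os.

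The target fragments below are those the results turn on, as the tables give them (mm10, read on the strand of the RNA), with the bases that pair with the seed, and an A opposite miRNA base 1 where present, in capitals. Coordinates cover the bases opposite miRNA bases 2 to 8.
Kmt2a, miR-199-3p, chr9:44806707-44806713, minus strand: aagttcaatgacACTACTGc
Cd151, miR-199-3p, chr7:141470800-141470806, plus strand: ccccactactgaacACTACTGA
Slc12a7, miR-199a-5p, chr13:73815568-73815574, plus strand: acatggctcagggtacCACTGGA
Slc12a7, miR-145a-5p, chr13:73815569-73815575, plus strand: catggctcagggtaccACTGGAA
Trf, miR-199a-5p, chr9:103217434-103217440, minus strand: gcaagaagtcctgccACACTGGg
Itgb1, miR-214-3p, chr8:128733004-128733010, plus strand: atactgtaagctgtCCTGCTGc
Flna, miR-214-3p, chrX:74235668-74235674, minus strand: agctacaggtggaaCCTGCTGt
Erbb3, miR-143-3p, chr10:128567819-128567825, minus strand: gcacccaggcctcTCATCTCA
Actb, miR-145a-5p, chr5:142903599-142903605, minus strand: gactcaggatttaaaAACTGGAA
Add3, miR-145a-5p, chr19:53245414-53245420, plus strand: aactggactttaaaaAACTGGAA
All of these fragments lie in annotated 3′UTRs, and those of Trf and Flna are coding sequence in other transcripts. The pair in Slc12a7 shows a shared position: the capitals of miR-199a-5p and miR-145a-5p overlap, offset by 1 base.

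The tables held 7781484 to 25546696 miRNA reads and 76948 to 208193 clusters, which are regions of overlapping Ago-bound reads. The members had 6649 to 15894 distinct sites per table. All 8 hepatocyte marker genes had clusters at every stage. Of 8 erythroid marker genes, 7 had clusters at e12.5 to P7 and 5 in the adult, and their summed reads, with those of the alpha globin genes Hba-a1 and Hba-a2 counted as 1 gene, ranged from 883 per 1000000 cluster reads in the adult to 52153 at e15.5. Each of the 3 embryonic tables held its interactions as 2 lists, which the labels do not describe. Their numbers were added up, and a list is given by itself where it changes a call of a member's level.

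miR-199-3p and miR-143-3p had the highest listed levels of the members at every stage. Given from the youngest stage to the adult, miR-199-3p was listed at 1356, 1002, 2361, 8165 and 3436 rpm, the reads per 1000000 miRNA reads of its table. miR-143-3p was listed at 1016, 1177, 2923, 4119.7 and 2853. Both were lowest at e12.5 or e15.5 and highest at P7, and each ranked within the first 79 of the listed miRNAs at every stage. The number listed for miR-199-3p was 3.00 to 3.01 times the highest read number at any of its 3 genes in every table, and that of miR-199a-5p was 2.01 to 2.11 times the number at either of its 2 genes. For miR-126a-3p, an endothelial miRNA with a single gene, the ratio was between 1.001 and 1.004. For miR-214-3p, also from a single gene, it was 1.14 to 1.40, which gene copies do not account for, and the reason was not tested. For both miR-199 arms the number was thus close to the reads at a copy times the copies, and divided by the copies miR-199-3p stood at 452, 334, 787, 2722 and 1145 rpm, below miR-143-3p at every stage. In the adult miR-199-3p was then also below miR-145a-5p, which was listed at 1587 rpm.

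miR-199a-5p, the opposite arm of the miR-199a hairpins, was listed at 39.1, 9.80, 49.3, 202 and 236 rpm. The value at e15.5 rests on 99 reads (interval 8.05 to 11.9), 4 in the first list (1.60 rpm) and 95 in the second (12.51 rpm). The arm was thus highest in the adult, where miR-199-3p was already below its P7 level. Per gene copy, miR-199-3p exceeded miR-199a-5p by 23.1, 68.1, 31.9, 27.0 and 9.71 times, and this ratio was lowest in the adult. The ratio at e15.5 rests on the same 99 reads.

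The course of miR-214-3p was unlike that of miR-199-3p, whose reads at miR-199a-2 in Dnm3os cannot be told from those of its other genes. miR-214-3p was listed at 80.8, 69.0, 137, 36.3 and 37.4 rpm, with the lower values at the postnatal stages. Its opposite arm, miR-214-5p, was listed at 53.3, 2.87, 27.8, 65.1 and 33.0. Before birth the 3p arm held 60.3%, 96.01% and 83.2% of the reads of both arms. Its share was 35.8% (interval 33.1 to 38.5) at P7 and 53.1% (interval 50.7 to 55.6) in the adult, so at P7 most reads came from the 5p arm.

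miR-145a-5p did not follow miR-143-3p, with which it shares a transcript. It was listed at 138, 56.4, 359.8, 73.2 and 1587 rpm. The adult value was the highest by far and rests on 36375 reads, against 882 at P7. The embryonic values depend on the list. In the first lists the 3 levels were 249.7, 10.8 (27 reads) and 478 rpm, and in the second lists 108, 71.5 and 15.6 rpm. In the e18.5 table miR-214-3p stood at 172 and 36.7 in the lists, while miR-143-3p stood at 2959 and 2819.

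**Figure D1:**
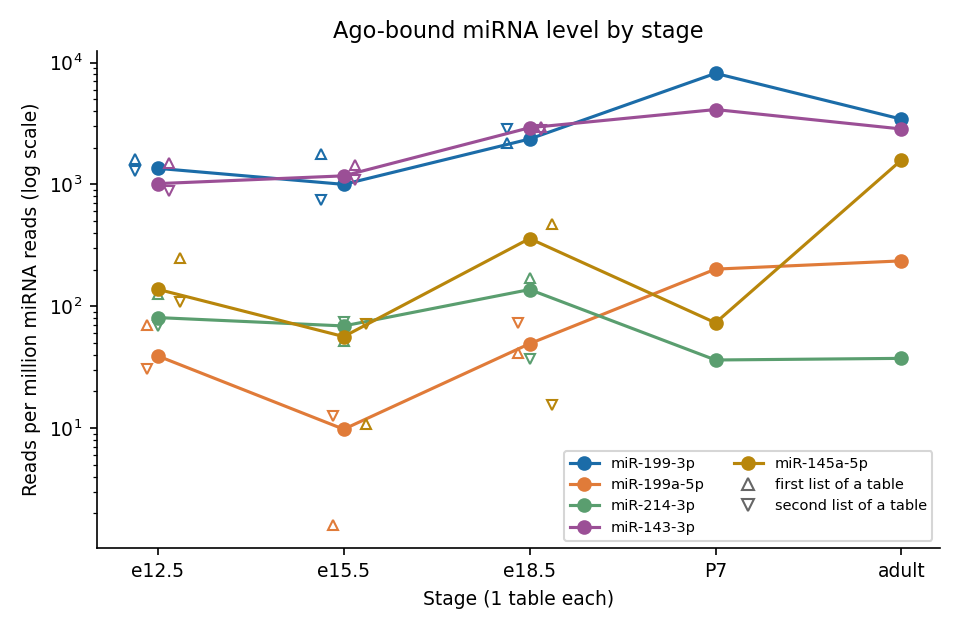
Level in rpm of miRNA reads (log scale) of the 5 mature sequences at the 5 stages, with filled points for a whole table and open triangles for the 2 lists of each embryonic table. miR-199-3p peaks at 8165 at P7, miR-145a-5p stands at 1587 in the adult, and the open triangles of miR-145a-5p at e18.5 lie at 478 and 15.6.

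From e12.5 to the adult, 4 of the 5 sequences were at least 2-fold higher and miR-214-3p was at least 2-fold lower. Among 418 miRNAs with at least 10 rpm in either table, 23.2% were at least 2-fold higher and 60.0% at least 2-fold lower, and the median change was -2.07 on the log2 scale, after a pseudocount of 1 was added to each level. The log2 change was 3.51 for miR-145a-5p, 2.56 for miR-199a-5p, 1.49 for miR-143-3p, 1.34 for miR-199-3p and -1.09 for miR-214-3p. All 5 thus lay above the median of all miRNAs. Scaled to library totals, the median change was higher by 0.99 and miR-214-3p was at -0.11, within 2-fold. On that scale 35.1% of the miRNAs that reach the minimum were at least 2-fold higher and 47.1% at least 2-fold lower. Calls were also lost for miR-214-3p with the second embryonic list alone (-0.86), for miR-143-3p with the first list alone (0.93) and for miR-199-3p with numbers summed over gene copies (0.92). Among the other miRNAs of known cell types, hepatocyte miR-122-5p differed by 2.96, endothelial miR-126a-3p by 3.07, and erythroid miR-144-3p and miR-451a by -3.82 and -3.27.

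Between neighbouring stages the 5 sequences did not move together. From e12.5 to e15.5 none was at least 2-fold higher (15% of all miRNAs were), and miR-199a-5p at -1.89 and miR-145a-5p at -1.27 were lower (18.1% of all). miR-145a-5p was within 2-fold at -0.59 with the second embryonic lists alone and at -4.41 with the first lists alone, and miR-199a-5p was at -1.23 and -4.79. With the first lists alone miR-214-3p was lower as well, at -1.25. From e15.5 to e18.5, 4 sequences were at least 2-fold higher (24.5% of all) and none was lower (17.5%). miR-145a-5p led with a log2 change of 2.65, and miR-214-3p lay just inside the limit at 0.98. With the second lists alone both miRNAs were lower, at -2.13 and -1.002. With the first lists alone miR-214-3p was higher, at 1.70, and miR-199-3p was within 2-fold at 0.29.

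From e18.5 to P7 the members split. miR-199-3p at 1.79 and miR-199a-5p at 2.01 were at least 2-fold higher (20.7% of all miRNAs), while miR-214-3p at -1.89 and miR-145a-5p at -2.28 were lower (34.2% of all). miR-143-3p was within 2-fold at 0.49, and higher at 1.25 when scaled to library totals. The e18.5 total leaves out the second e18.5 library, and whether the e18.5 table holds reads of that library is not stated. With the second e18.5 list alone, miR-145a-5p was higher at P7, at 2.16, and miR-214-3p was near 0 at -0.02. From P7 to the adult miR-145a-5p was higher by 4.42 (11.3% of all miRNAs were at least 2-fold higher) and miR-199-3p was lower at -1.25 (58.3% of all). These last values use tables of a single list, and scaled to library totals miR-199-3p was within 2-fold, at -0.91.

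By the shape of the course over the 5 stages, miR-199-3p was most like miR-126a-5p among 249 other miRNAs, with a root mean square difference of 0.28 on the log2 scale after each course was centred. miR-152-3p (0.41) and miR-30d-3p (0.42) came next, and the median over the 249 was 1.63. miR-126a-5p, the opposite arm of the endothelial miR-126a, was also nearest to miR-143-3p (0.33), before miR-107-3p and miR-152-3p (0.36 each). miR-214-3p was nearest to miR-106b-5p (0.18), miR-128-3p (0.31) and miR-32-5p (0.34). miR-199a-5p was nearest to miR-874-3p (0.56), miR-125b-5p (0.67) and miR-497a-5p (0.83), and miR-145a-5p to miR-140-5p (0.74), miR-29c-5p (0.80) and miR-193a-3p (0.89). The lists were added up for these courses, and the embryonic values of miR-145a-5p depend on the list. miR-193a-3p was at 0.495 rpm at e15.5, below the pseudocount. Within the group, miR-199-3p and miR-143-3p were the closest, at 0.47, and miR-199a-5p and miR-214-3p the farthest apart, at 2.16.

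The mesenchymal marker genes gave the tissue context, with the limit that their clusters measure Ago-bound fragments. In bulk liver, fewer cells of a type and less RNA per cell cannot be told apart. Dnm3os carried most of the list, since its clusters hold the reads at the miR-199a-2 and miR-214 genes, of which those at miR-199a-2 were listed in nearly the same number at the other genes of miR-199-3p. Without it, the other 13 genes summed to 119, 94.9, 216, 364 and 128 rpm of cluster reads in the order of stages, with clusters in 11, 8, 12, 13 and 12 genes. This sum was highest at P7, as miR-199-3p and miR-143-3p were, and its part in their course was not tested. Rgs5, a pericyte gene, had no cluster at the embryonic stages, and Tagln, a smooth muscle gene, had none at e12.5, e15.5 and in the adult. Des, Lrat and Myh11, of stellate and smooth muscle cells, had none at e15.5. From P7 to the adult, where miR-145a-5p was highest, 11 of the 13 genes stood lower. Clusters in 3′UTR, CDS or 5′UTR held 20.5% of all cluster reads at P7 and 13.5% in the adult. On this scale mRNA as a whole thus also stood lower, and the same count over all genes was not made. The smooth muscle genes Myh11 and Acta2 were at 1.13 rpm against 12.2 and 1.04 against 7.82, each with 1 adult cluster. The other 2 of the 13, Lrat at 23.3 against 9.33 and Rgs5 at 9.44 against 5.39, stood higher. The 6 endothelial genes summed to 21.0, 41.8, 68.0, 223 and 171.

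The members with the most sites were not those with the highest levels. miR-214-3p matched more clusters than any other seed in all 5 tables, 7076 of 208193 at e12.5 (3.40%, interval 3.32 to 3.48) and 3649 of 81194 in the adult (4.49%, interval 4.35 to 4.64). By miRNA reads the same seed ranked between 132 and 203. With 6mers left out it ranked 2, 5, 2, 6 and 4 among the seeds in the order of stages. A match says that these letters lie in the cluster, and not that the miRNA was bound there.

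The other seeds had fewer sites. miR-145a-5p sites lay in 1.53% of clusters at e12.5 and 1.77% in the adult, and miR-199a-5p sites in 1.21% and 1.52%. miR-199-3p sites lay in 0.874% and 0.958%, and miR-143-3p sites in 0.609% and 1.01%. miR-143-3p showed the largest shift of the 5 seeds from e12.5 to the adult, 0.74 on the log2 scale. No seed of the group changed by 2-fold or more in any of the 5 comparisons. From e12.5 to the adult, 16.9% of 726 seeds had at least 2-fold higher shares and 33.1% lower ones. In the 4 steps between neighbouring stages, taken in order, 7.68%, 22.5%, 31.0% and 10.5% of seeds were higher and 31.6%, 14.7%, 10.5% and 30.5% lower. The 11.4-fold higher miR-145a-5p level in the adult thus stood beside a share of clusters with its sites that was 1.77% against 1.53%.

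**Figure D2:**
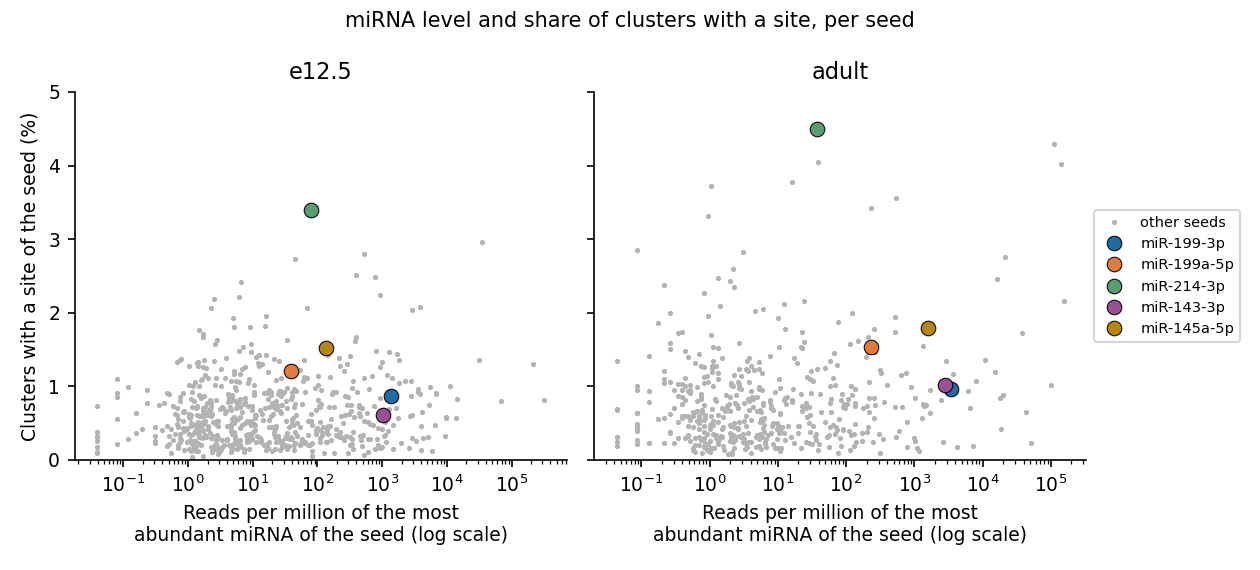
Each point is a seed, placed by the rpm of its most abundant miRNA (log scale) and the percent of clusters that hold a site for it, at e12.5 and in the adult. miR-214-3p is the highest point in both panels, at 3.40% and 4.49%, while miR-199-3p and miR-143-3p lie to the right, between 0.609% and 1.01%.

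Sites of miR-199a-5p and miR-145a-5p often coincided, as in Slc12a7. At e12.5, 771 of 2511 miR-199a-5p sites (30.7%) overlapped a miR-145a-5p site by at least 5 bases, which was 24.2% of the 3185 miR-145a-5p sites. The shares ran from 28.7% to 36.2% and from 18.2% to 24.9% over the 5 tables. The site counts of these 2 seeds are therefore not independent. miR-199-3p and miR-214-3p have seeds that resemble each other, but their matched letters differ at an inner base. Their sites therefore cannot overlap by 5 bases, so that count says nothing about binding. At e12.5, 129 clusters held sites of both.

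The share of sites in the CDS was larger at later stages for every member. For miR-199-3p it was 36.1%, 41.8%, 47.2%, 51.8% and, in the adult, 61.8% (interval 58.4 to 65.2). For miR-214-3p it was 39.7% at e12.5 and 60.5% in the adult. The same held over all seeds, from 34.4% to 53.0%, so this course is shared with the whole of the tables. In the adult, the intervals of miR-199-3p, miR-214-3p and miR-145a-5p (53.6 to 58.8) lay above the share of all seeds, and those of miR-199a-5p and miR-143-3p included it. In 3′UTRs lay 17.0% to 28.5% of the members' sites.

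Members also differed in the kind of match in 3′UTRs. Of the miR-199-3p sites there, 13.7%, 10.2%, 18.0% and 16.8% were 8mers from e12.5 to P7, and 7.01% in the adult (11 of 157, interval 3.96 to 12.1). All seeds together had 7.39% to 8.34%. The intervals of miR-199-3p lay above the value of all seeds at 3 stages and included it at e15.5 and in the adult. In the CDS its 8mer share was 7.76%, 7.20%, 8.24%, 8.89% and 3.33%, with 6.93% to 7.59% over all seeds. By 8mer share in 3′UTRs miR-199-3p ranked 17 of 381 seeds at e18.5 and 20 of 581 at P7, against 168 of 380 in the adult.

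miR-145a-5p sites in 3′UTRs held at least 10.3% 8mers at every stage. Those of miR-143-3p held 6.98% to 13.2%, on 86 to 248 sites. miR-214-3p, with the most sites, had 2.80% to 4.93% 8mers, below all seeds at each stage. At sites with at least 7 matched bases in 3′UTRs, the median deposited conservation score, which runs from 0 to 1, was 0.802 to 0.870 for miR-145a-5p and 0.035 to 0.317 for miR-143-3p, with 0.25 to 0.603 over all seeds. Among these sites, those of miR-145a-5p were thus the most conserved of the 5 seeds at every stage. In the CDS, with 6mers included, the median of miR-143-3p was at or above that of miR-145a-5p at every stage.

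**Figure D3:**
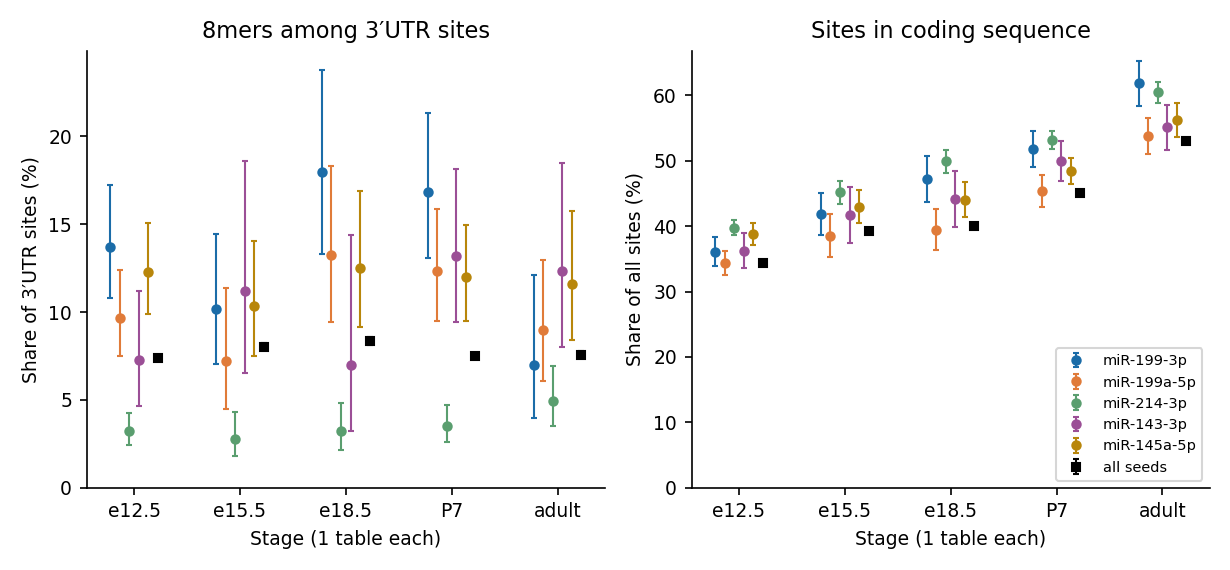
Left, percent of 3′UTR sites that are 8mers; right, percent of all sites that lie in the CDS, for each seed and stage, with Wilson 95% intervals (counting error only) and all seeds in black. miR-214-3p stays below 5% 8mers at every stage, and the CDS shares of all members are larger in the adult than at e12.5.

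Most target genes were listed at a single stage, as was the case over all seeds: for the median of 806 seeds with at least 50 genes, 78.7% of the genes with a 3′UTR site had it in 1 table. For the 5 seeds here this share was 55.3% to 72.4%. Genes with a 3′UTR site of miR-214-3p numbered 2304 over all stages, of which 55 had a site in all 5 tables and 1275 in a single table. For miR-145a-5p these numbers were 1236, 18 and 791, for miR-199a-5p 1080, 13 and 741, for miR-199-3p 801, 20 and 511, and for miR-143-3p 598, 2 and 433. Between P7 and adult, sites of miR-199-3p with at least 7 matched bases shared 32 genes, which was 19.5% of the 164 genes at P7 and 52.5% of the 61 in the adult. For the other seeds the shared genes were at most 23.0% of those at P7 and 28.0% to 45.9% of those in the adult. The medians over all seeds with at least 50 such genes at both stages were 19.5% and 34.7%. The tables differ in depth, and a gene that is absent from a table may have lain below its lowest listed read number, 5.

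The sites named next were in the most tables for each seed, and their values are rpm of cluster reads in the order of stages. Matches of other seeds in their clusters are those of 7 or more bases at the stage with the highest value. They are not given for every site. The clusters of Tnfaip2, Fth1, Bach1 and Hba-a1, for example, held some of more abundant miRNAs. For miR-199-3p, the site in Kmt2a, a histone H3K4 methyltransferase gene, stood at 13.8, 43.9, 32.9, 11.6 and 1.08. It is fully conserved by the deposited score, and the cluster also held a match of the more abundant miR-142a-3p. The site in Tnfaip2, a TNF-induced gene, stood at 105, 65.5, 77.5, 7.09 and 0.764, and it is annotated as CDS in another transcript. The site in Cyb5a, which encodes cytochrome b5, lies on chromosome 18, is CDS in another transcript and stood at 11.4, 36.2, 8.84, 0.303 and 0.241. In all 3 genes the adult value was the lowest, whereas the miRNA itself was higher in the adult than at e12.5. Lars2, for a mitochondrial leucyl-tRNA synthetase, stood at 102, 30.3, 39.97, 29.2 and 34.8, at a position with a conservation score of 0 and matches of 18 other seeds. In the CDS, the site in Fth1, the ferritin heavy chain gene, stood at 65.9, 92.6, 62.3, 17.6 and 3.17.

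For miR-199a-5p, the sites in liver-secreted protein genes had the higher values after birth. The site in Trf, which encodes the iron carrier transferrin, stood at 0.602, 1.998, 8.92, 61.3 and 15.8. The CDS site in Apob, the apolipoprotein of hepatic lipoproteins, stood at 0.958, 38.0, 67.9, 529 and 97.5. The clusters of both held matches of 14 other seeds. The 3′UTR site in Slc12a7, a potassium-chloride cotransporter gene, stood at 4.48, 0.666, 17.5, 28.4 and 11.5, and these reads serve the overlapping miR-145a-5p site as well. Abca1, the cholesterol exporter, stood at 5.33, 5.63, 5.07, 6.18 and 10.3 at a fully conserved site, with the adult value the highest. In the adult its cluster also held a match of the more abundant miR-145a-5p. Bach1, a heme-responsive repressor of transcription, stood at 10.2, 27.2, 12.7, 2.73 and 4.18. The CDS site in Sdha, a succinate dehydrogenase subunit, stood at 11.1, 10.8, 9.69, 3.27 and 1.85, so it was lower after birth, unlike Apob.

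For miR-214-3p, the 3′UTR site in Itgb1, the beta 1 integrin through which cells hold on to matrix, stood at 70.2, 52.8, 54.0, 14.7 and 3.62. Flna, the actin crosslinker filamin A, stood at 5.13, 7.08, 49.8, 84.2 and 13.5. Ppap2b, a lipid phosphate phosphatase, stood at 1.25, 1.82, 42.5, 55.0 and 11.3 at a fully conserved site. These 2 sites were thus highest at P7, where the miRNA stood at 36.3 rpm, near its adult level, and Itgb1 was highest at e12.5. Irf2bp2, a transcriptional corepressor, stood at 2.92, 13.3, 10.4, 9.03 and 1.21. Each of these clusters held matches of 2 to 7 other seeds with more abundant miRNAs among them. The CDS site that the rule named was listed in both alpha globin genes, Hba-a1 and Hba-a2, with the same 20623, 8130, 3350, 2608 and 152 reads. These are near-identical copies, so the reads cannot be assigned to either gene.

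miR-143-3p had no 3′UTR site of at least 7 matched bases at a single position in all 5 tables. Erbb3, a receptor of the EGF receptor family, held an 8mer that was not listed at e12.5 and stood at 5.45, 0.615, 2.97 and 3.30 from e15.5 on. At e15.5 no other listed miRNA with a match of 7 or more bases in its cluster was more abundant. Fech, which encodes the last enzyme of heme synthesis and lies on chromosome 18, stood at 2.99, 4.90, not listed, 2.61 and 0.241. Fam46c, a poly(A) polymerase gene, stood at 0.357, 1.21, not listed, 4.18 and 1.21, and Ipo11, a nuclear import receptor gene, stood at 17.4, 4.78, 0.846 and 1.09 and was not listed in the adult. No 2 of these sites were missing from the same table, apart from Fech and Fam46c, both missing at e18.5. In the CDS, Cps1, the entry enzyme of the urea cycle, stood at 0.602, 3.39, 60.7, 14.5 and 11.8. Pdhb, a pyruvate dehydrogenase subunit, stood at 23.4, 109, 11.5, 7.64 and 0.362, and its cluster at e15.5 held no other match of 7 or more bases.

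For miR-145a-5p, the 8mer in the 3′UTR of Actb, the cytoskeletal beta actin gene, stood at 31.4, 20.8, 25.3, 4.73 and 1.29. At e12.5 none of the miRNAs of the 2 other seeds with a match of 7 or more bases was more abundant. The Actb site was lowest in the adult, where the miRNA was at its highest. The Abca1 site named for this seed, at chr4:53033827-53033833 and apart from that of miR-199a-5p, stood at 3.83, 12.53, 21.4, 4.06 and 6.95. Slc38a2, an amino acid transporter gene, stood at 4.32, 7.99, 7.46, 0.727 and 3.09, which put P7 lowest. In the CDS, Fth1 stood at 87.9, 92.6, 62.3, 17.7 and 3.17, from the same cluster as its miR-199-3p site. Cltc, the clathrin heavy chain gene, stood at 62.3, 69.9, 34.8, 9.21 and 6.51.

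**Figure D4:**
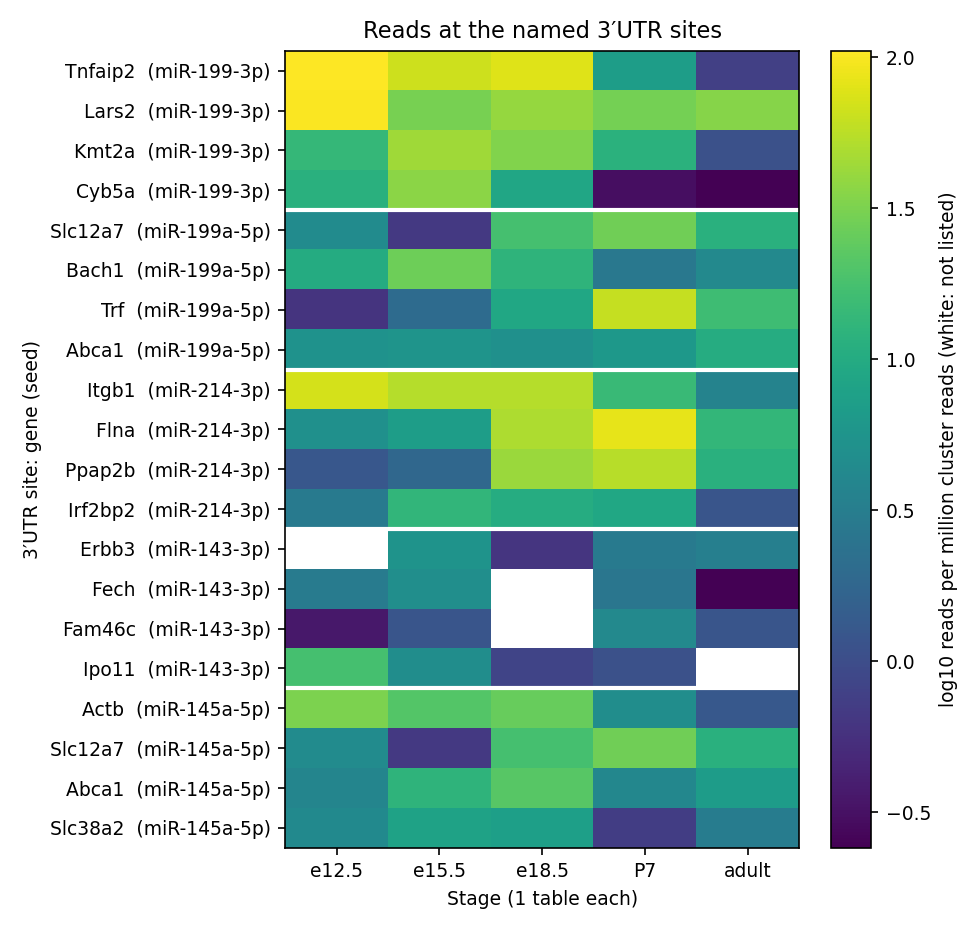
Reads at the 20 named 3′UTR sites by stage, as log10 of rpm of cluster reads, grouped by seed, with white where a site was not listed. Tnfaip2, Itgb1 and Actb are brightest at e12.5, and Trf, Flna and Ppap2b at P7.

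Across the seeds, 2393 genes held a 3′UTR site of at least 7 matched bases for a member at any stage, of which 1884 held sites of 1 seed, 406 of 2, 89 of 3, 14 of 4 and none of all 5. By summed rpm the first of the 14 were Abca1 (117), Pura (117), Uhmk1 (28.1), Zbtb20 (26.1) and Hipk2 (18.49). The first 4 held sites of all seeds but miR-143-3p, and Hipk2 of all but miR-214-3p. Pura encodes a nucleic acid binding protein, Zbtb20 a repressor of transcription in hepatocytes, and Uhmk1 and Hipk2 encode kinases. All 5 genes had such sites at all 5 stages. Where miR-199a-5p and miR-145a-5p sites coincide, a gene counts for both seeds.

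Of 36 genes reported as targets of these miRNAs, 11 held a 3′UTR site of the miRNA concerned, and 9 held a site of at least 7 matched bases. Of the 36, 32 had a listed 3′UTR site of some miRNA. Among all genes with such a site, 5.40% for miR-143-3p to 20.8% for miR-214-3p held a site of the member. Cd151, a tetraspanin and reported target of miR-199-3p, held a pair of 8mers, and the one shown above had 278, 40, 12 and 64 reads from e12.5 to P7 and was not listed in the adult. Both have a conservation score of 0, and the cluster of the one shown also held a match of the more abundant miR-142a-3p at e12.5. The collagen receptor gene Ddr1 held 3 conserved miR-199a-5p sites, each in a single table with 5 to 20 reads. Ctnnb1, which encodes beta-catenin, held 3 sites of miR-214-3p. Its 6mer at chr9:120957771-120957776, which is coding sequence in another transcript, was in all 5 tables with 346, 73, 131, 69 and 72 reads.

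For miR-145a-5p, 5 of 11 reported targets held a listed 3′UTR site. Fscn1, the actin bundling protein fascin, held an 8mer with 198 reads at P7 and in no other table. Add3, the membrane skeleton protein gamma adducin, held 3 conserved sites, among them the 8mer shown above with 90 reads at e18.5 and 44 at P7. Tgfbr2, a TGF-beta receptor, held a conserved 8mer with 5 reads at e12.5 and 37 in the adult. Irs1, an insulin receptor substrate, held a 6mer with 22 reads in the adult, and Srgap2, a regulator of actin protrusions, a 7mer with 12 reads at e12.5. For miR-143-3p, Fndc3b held a conserved 7mer with 27 reads at e12.5 and 47 at P7, and for miR-199-3p the growth kinase gene Mtor held a 6mer with 31 reads at e12.5. The other 25 genes, such as Klf4, Klf5, Ezh2, Hif1a and Met, had no listed 3′UTR site of their miRNA, and Cd44, Ezh2, Xbp1, Atf4 and Smad3 among them had a single CDS site each.

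Sites of at least 7 matched bases were also looked up in the marker genes of the liver's cell types. Of all genes with a listed site of any miRNA in the 3′UTR, 21.6% (2393 of 11065) held such a member site there, and in the CDS 31.0% (4209 of 13595) did. None of the 14 mesenchymal genes, 12 of which had a listed 3′UTR site of some miRNA, held a member's site there, and 6 held 1 or more in the CDS. Among those, Reln, a stellate cell gene, had miR-199a-5p sites in all 5 tables, with up to 36, 39, 64, 202 and 31 reads, and Col1a1 had miR-214-3p sites with up to 45 reads at P7 and 60 in the adult. Of 8 hepatocyte genes, 7 held a CDS site and 2, Apob and Trf, a 3′UTR site. The albumin gene Alb had miR-214-3p CDS sites with up to 1230, 1763, 4217, 3766 and 25668 reads. Of 8 erythroid genes, 5 held a CDS site and 2, Slc4a1 among them, a 3′UTR site, and of 6 endothelial genes 3 and 2 did. The miR-199a-5p 8mer in the 3′UTR of the erythrocyte anion exchanger gene Slc4a1 had 613, 747, 310 and 97 reads from e12.5 to P7 and was not listed in the adult.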

How the data were processed

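The interaction tables that the authors deposited from Ago HITS-CLIP, 1 for each of the 5 stages, were the starting point. Per the methods, the authors trimmed reads with the FASTX-Toolkit, mapped them to mm10 with Bowtie, identified miRNAs with miRBase version 19 and searched clusters of overlapping reads for seed matches. Versions of these tools are not given in the sources used here, and the submitters' processing notes name mm9 and mm10. The deposited signal is the highest read number at a site, not scaled to depth by the authors. The deposited conservation score runs from 0 to 1, and the deposited free energy score of the duplex was not used in a result. The number in an interaction name, which the authors do not describe, was taken as the reads of the miRNA. It was close to the reads added up over the gene copies for both miR-199 arms and miR-126a-3p, and above them for miR-214-3p.

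miRNA reads were scaled to 1000000 miRNA reads of a table (rpm) and site reads to 1000000 cluster reads. Where a table held 2 lists, reads were added up. A distinct site is a position, strand and miRNA, and its coordinates count from 1. The fragments of all 34690 member sites were found at their listed positions in GRCm38. A pseudocount of 1 rpm was used for log2 changes, which were called at 2-fold among miRNAs with at least 10 rpm in either table, or among seeds with at least 50 clusters in either table. Intervals are Wilson 95% intervals. Reads were named for 4 3′UTR sites and 2 CDS sites per seed, those of at least 7 matched bases in the most tables and then with the highest median. Also named were 5 genes by number of seeds, 3 miRNAs by likeness for each member, and genes reported as targets. The members and lists were chosen with earlier results of these data known. Python 3.11.15 with pandas 2.3.3, NumPy 2.4.6, SciPy 1.17.1 and matplotlib 3.10.9 was used, with samtools 1.23.1. The functions were tested on simulated data. Alternatives were each list alone, division by gene copies, scaling to library totals or to mRNA clusters, other folds and minimums, and sites of at least 7 matched bases. Values of some listed genes are not reported here.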

Additional observations from a re-analysis of the deposited data

How the results depend on the processing

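Of the recalculated values that answer a comparison, 122 kept their side of the threshold or stayed within 1.5 times of a count, some with a changed sign below the threshold. A further 20 moved, 6 passed the call and 7 lost it. Of the other values, which are those of single miRNAs and sites, of neighbouring stages and of the share of all miRNAs called, 138 were kept in this sense, 12 moved, 7 passed the call, 16 lost it and 3 reversed. The number divided by gene copies, scaling of site reads to mRNA clusters, the marker list without Dnm3os and the 8mer share in the CDS were alternatives chosen after seeing the data. From e12.5 to the adult, miR-199-3p was at 0.92 on the log2 scale with the number summed over gene copies and miR-143-3p at 0.93 with the first embryonic lists, both within 2-fold. miR-214-3p was at -0.86 with the second lists and -0.11 with library totals, so 0 members were at least 2-fold lower under either. At 4-fold, 2 members were higher, 0 were lower, and miR-199-3p (1.34), miR-143-3p (1.49) and miR-214-3p (-1.09) were within the limit. With the second lists alone miR-145a-5p reversed, to -2.13 from e15.5 to e18.5 and to 2.16 from e18.5 to P7, and miR-214-3p reversed to -1.002 from e15.5 to e18.5. The cause was not tested. At least 7 matched bases put miR-214-3p at ranks 2, 5, 2, 6 and 4 by clusters and moved the change in the 3′UTR share of miR-199a-5p sites from -0.91 to 2.67 percentage points. With 6mers left out, fewer sites count by construction: genes with a 3′UTR site at any stage then numbered 401 for miR-199-3p, 557 for miR-199a-5p, 1094 for miR-214-3p, 297 for miR-143-3p and 670 for miR-145a-5p, and at all 5 stages there were 13, 6, 17, 0 and 9. The median reads per site from e12.5 to the adult differed by 0.54 to 0.74 on the log2 scale. Scaled to mRNA clusters the differences in the same order of seeds were 1.36, 1.42, 1.33, 1.53 and 1.37, and for miR-143-3p library totals gave 1.05. Unscaled, the medians of the 5 seeds were 28 to 34 reads at e12.5 and 24 to 28 in the adult, beside 27 and 24 over all seeds. No paired analysis was possible because each stage has 1 table. Precision is limited by the counts of rare classes, such as 11 adult 8mers of miR-199-3p in 3′UTRs or 99 reads of miR-199a-5p at e15.5.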
